A study of Homo sapiens with 4 samples.

Results

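The matrix metalloproteinases MMP1, MMP2, MMP7, MMP9, MMP14 and MMP15, the related protease ADAM19 and the inhibitors TIMP1, TIMP2 and TIMP3 were followed in RCC4 cells with and without PML silencing. These 10 genes, out of 59050 in the deposited count table, were chosen by name from earlier results on the same libraries, among them differences between shPML and shCTRL cells, so that their values in that contrast are given below as a description and without a test. All 10 had a row in the table, and 9 of them passed the filter on low counts that left 16516 genes for testing. The exception was TIMP3, with at most 1 count per library, and MMP2 passed only through its counts in the shPML libraries.

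RCC4 is an established human clear cell renal cell carcinoma line. In shPML cells a lentiviral hairpin against PML was expressed, and in shCTRL cells a scrambled hairpin, both under a doxycycline-inducible promoter, and cells of both groups received 100 ng/ml doxycycline for 96 h in medium with tetracycline-free serum. The 2 experiments, given by the replicate numbers, came from separate infections, so that each group held 2 libraries, and the cells were puromycin-selected bulk populations with 1 hairpin against PML rather than clones. The libraries were strand-specific poly(A) RNA libraries, with 53716181 and 36964369 counted reads in shCTRL replicates 1 and 2 and 69870617 and 27781193 in shPML. According to the design text of the record, shPML replicate 1 and shCTRL replicate 2 first carried each other's labels, and the corrected labels were used.

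Matrix metalloproteinases are zinc enzymes that are made as inactive precursors and cleave collagens, laminins, fibronectin and other parts of the matrix around the cell. Most are secreted, whereas the membrane-type enzymes stay at the cell surface, and ADAM proteases are membrane proteins that mainly release the outer parts of other membrane proteins. TIMPs are small secreted proteins that block the active site of many metalloproteinases, and they differ in which enzymes they block. The protease RNA of a culture is commonly read beside its TIMP RNA. Here CPM is the count of a gene relative to the TMM-normalized size of its library, and it is used to compare 1 gene between libraries. TPM also corrects for the length of the gene, and it is used wherever genes are compared or added.

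PML, the targeted gene, stood at 93.1 and 136 CPM in shCTRL replicates 1 and 2 and at 54.9 and 87.6 CPM in shPML, which was lower than the control of the same experiment both times. All 7 markers of renal tubule and carcinoma cells, such as PAX8, KRT8 and CA9, were above 1 CPM in each library, with summed levels from 4593 to 5586 CPM in shCTRL and from 5612 to 7425 CPM in shPML. The library of shPML replicate 2 stood apart from the others by RNA of leukocyte marker genes, called leukocyte RNA here. Whether this RNA came from other cells was not tested. The 7 leukocyte markers summed to 2.20 and 2.56 CPM in shCTRL, to 2.69 CPM in shPML replicate 1 and to 87.6 CPM in shPML replicate 2. In that library the monocyte receptor gene CD14 was at 42.8 CPM, CSF1R at 26.6, PTPRC, which encodes CD45, at 12.6 and ITGAM at 5.60 CPM, whereas MPO, CD3E and MS4A1, markers of granulocytes, T cells and B cells, had 0 counts in all 4 libraries. A further 10 myeloid genes, chosen after their levels had been seen, summed to between 0.95 and 1.20 CPM in the other libraries and to 288 CPM in this one, where the lysozyme gene LYZ alone was at 85.4 CPM. It also held 64 genes above 5 CPM that were below 0.2 CPM in each of the other libraries, against 0 such genes for each of the other 3. Of 4 fibroblast markers, which summed to between 2.47 and 9.53 CPM, LUM and DCN had 0 counts throughout, and 3 endothelial markers summed to at most 0.39 CPM apart from 4.36 CPM in shPML replicate 2, nearly all of it from PECAM1, which leukocytes also express. The part of this RNA in the results below was not tested. Values without this library, from a fit that leaves it out or from experiment 1 alone, stand beside the changes below.

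In control cells the membrane-type enzyme MMP14 was the most abundant of the proteases. Per length it was at 73.4 ± 0.96 TPM (SD, n = 2), followed by MMP15 at 41.3 ± 16.4 TPM, and the libraries of these genes did not overlap. MMP1 followed at 11.1 ± 2.27 TPM, MMP9 at 10.7 ± 10.7 and ADAM19 at 7.93 ± 0.19 TPM, and the order of these 3 was not resolved, because MMP9 ranged from 3.14 TPM in replicate 1 to 18.3 TPM in replicate 2. MMP7 was low at 2.52 ± 0.13 TPM, and MMP2 was barely present at 0.049 ± 0.070 TPM. TIMP1 and TIMP2 were above each protease in both control libraries. TIMP1 was at 630 ± 185 TPM, TIMP2 at 86.7 ± 6.48 TPM, and TIMP3 had 1 count in replicate 1 and 0 in replicate 2 of both groups, where a count of 0 allows up to 3 counts.

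**Figure D1:**
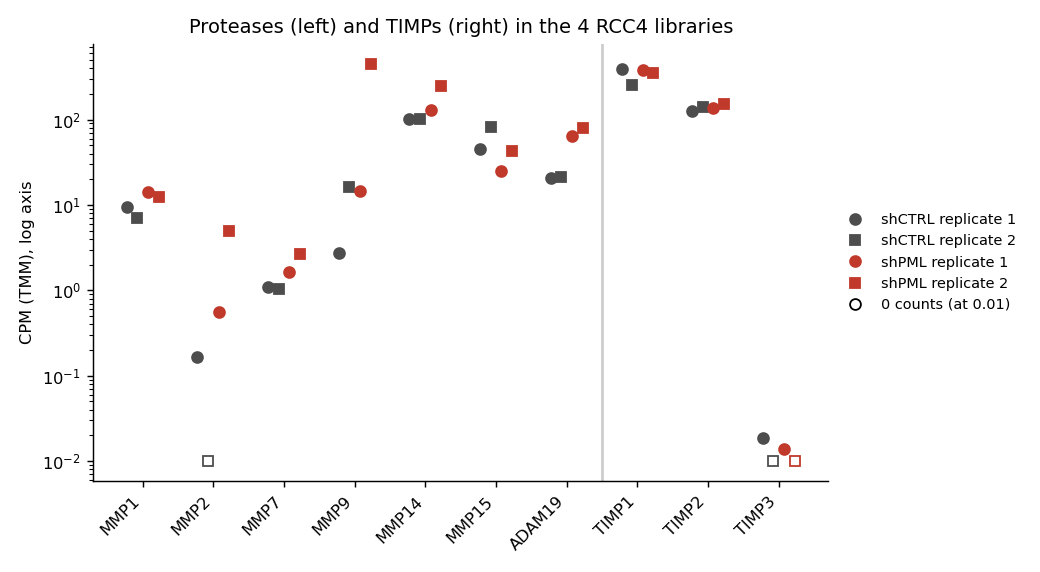
CPM of the 10 genes in the 4 libraries on a log axis, with shCTRL in grey, shPML in red, circles for replicate 1, squares for replicate 2 and open symbols for 0 counts. Both shPML libraries lie above both shCTRL libraries for MMP1, MMP2, MMP7, MMP14 and ADAM19 and below them for MMP15, whereas MMP9 ranges from 2.73 to 449 CPM with overlapping groups and TIMP2 stays between 125 and 154 CPM.

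Among the secreted enzymes, MMP9 RNA was higher in shPML than in shCTRL within each experiment, by very different factors. MMP9, also called gelatinase B, cleaves type IV collagen and denatured collagen and lies on chromosome 20 of GRCh38 from 46008908 to 46016561. Experiment 1 gave 2.73 CPM in shCTRL and 14.6 CPM in shPML, and experiment 2 gave 16.1 CPM and 449 CPM. The shCTRL library of replicate 2 was thus above the shPML library of replicate 1, and the groups overlapped. Within the experiments MMP9 was 5.34-fold and 27.8-fold higher in shPML. The log2 ratio was 2.42 in experiment 1 (95% interval 2.17 to 2.67) and 4.80 in experiment 2 (4.68 to 4.92), where these intervals, here and below, cover the error of counting reads only, since each experiment had 1 library per group. Over all 4 libraries the fitted log2 fold change was 4.63 (standard error 1.71), and without shPML replicate 2 it was 0.64. The ratio of experiment 1 does not use that library. The leukocyte sum of experiment 1 was 2.20 CPM in shCTRL and 2.69 CPM in shPML, but its members moved apart, with CSF1R at 1.09 and 0.15 CPM, ITGAM at 1.07 and 2.40 CPM, PTPRC at 0 and 7 counts and, among the further myeloid genes, LAPTM5 at 4 and 33 counts, and their part in the ratio of MMP9 was not tested.

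MMP2, the other gelatinase, on chromosome 16 from 55389700 to 55506691, was nearly absent from 3 of the 4 libraries. It had 9 and 0 counts in shCTRL and 40 and 138 counts in shPML, or 0.17 and 0 CPM against 0.56 and 5.02 CPM. The level was 3.36-fold higher in experiment 1 (log2 ratio 1.75, interval 0.68 to 2.98) and, with 3 counts set for the empty library, at least 60.2-fold higher in experiment 2. The antisense gene MMP2-AS1, which shares no exonic base with MMP2, had 0 counts in the first 3 libraries and 88 in shPML replicate 2, the library with the leukocyte RNA.

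MMP1, the interstitial collagenase, which cuts fibrillar collagens, changed by a similar and smaller factor in both experiments. It lies on chromosome 11 from 102789919 to 102798160. Its levels were 9.37 and 7.08 CPM in shCTRL and 14.2 and 12.4 CPM in shPML, and the groups did not overlap. The log2 ratio was 0.60 (interval 0.45 to 0.76) in experiment 1 and 0.80 (0.57 to 1.04) in experiment 2, and without shPML replicate 2 the fitted log2 fold change was 0.79. MMP7, or matrilysin, a small enzyme of epithelial cells from the same stretch of chromosome 11, was low in all libraries. It was at 1.09 and 1.03 CPM in shCTRL and at 1.65 and 2.69 CPM in shPML, with 37 to 118 counts per library. Its log2 ratios of 0.59 (interval 0.13 to 1.07) and 1.39 (0.80 to 1.999) had overlapping intervals. Their difference of 0.79 had an interval of 0.068 to 1.52 for counting error, just above 0. Without shPML replicate 2 the fitted log2 fold change was 0.64, against 1.02 with it.

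The neighbours of MMP1 and MMP7 on chromosome 11 were close to absent outside shPML replicate 2. MMP10, or stromelysin-2, had 0 and 3 counts in shCTRL and 5 and 181 in shPML, which in experiment 2 was a log2 ratio of 6.30 (interval 4.73 to 8.59). MMP8, the collagenase of neutrophils, had 0 counts in the first 3 libraries and 80 counts, or 2.91 CPM, in shPML replicate 2, at least 34.9-fold above its control. MMP3, or stromelysin-1, had 30 counts there and at most 6 elsewhere, and MMP12, MMP20 and MMP27 had none in any library. None of these genes passed the filter, and all that rose above a few counts did so in the library with the leukocyte RNA.

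**Figure D2:**
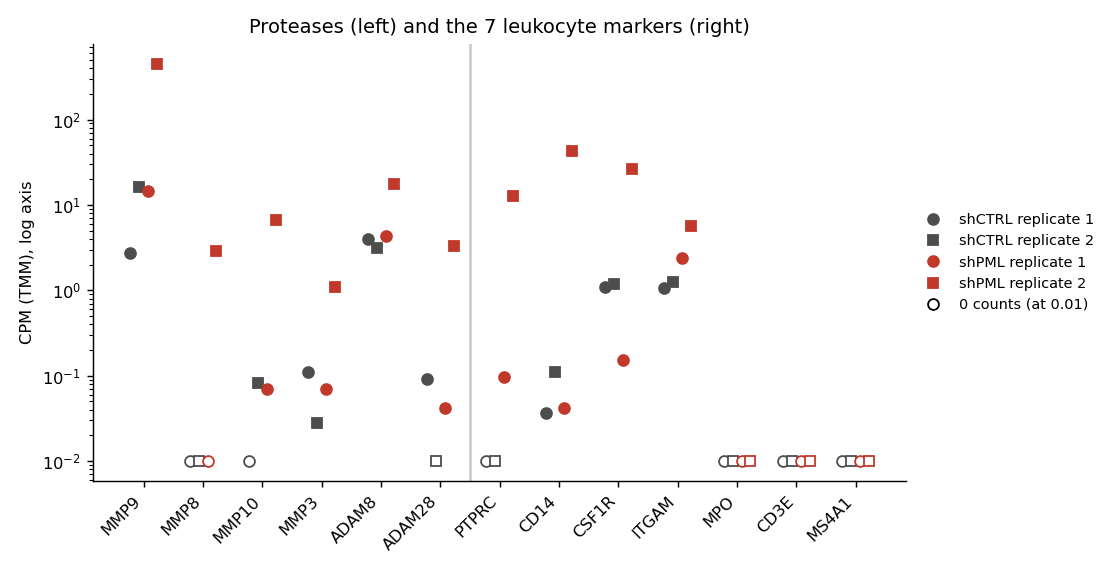
CPM on a log axis of MMP9 and 5 further proteases, left, and of the 7 leukocyte markers, right, with shCTRL in grey, shPML in red, circles for replicate 1, squares for replicate 2 and open symbols for 0 counts. The 4 detected markers are highest in shPML replicate 2, where MMP9 is at 449 CPM, and MPO, CD3E and MS4A1 have no counts.

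RefSeq promoters were available for 6 of the 10 genes (MMP7, MMP14, MMP15, ADAM19, TIMP1 and TIMP3). They were searched for the AP-1 site TGANTCA, the NF-kB core GGGANTTTC and the TATA box TATAAA on both strands, within the 250 bases before the start site, and the motifs do not overlap here. The AP-1 letters occurred in 6.57% of 35116 such windows of the genome, the TATA letters in 10.7% and the NF-kB letters in 1.12%. Of the 6 genes, MMP7 alone held the AP-1 letters, as TGAGTCA from position -67 to -61 before the start, and it alone held the TATA letters, from -30 to -25. Its neighbour MMP10 held TGAATCA at the same positions -67 to -61 and TATAAA from -31 to -26. None of the 6 held the NF-kB letters. The windows of MMP7 (chr11:102530748-102530997, minus strand) and MMP10 (chr11:102780629-102780878, minus strand) are shown for these letters, and those of ADAM19 (chr5:157575776-157576025, minus strand) and MMP15 (chr16:58025504-58025753, plus strand) because these genes moved in opposite directions, each of them in both experiments. All are from RefSeq on build GRCh38.p14, written 5′ to 3′ with the AP-1 letters in capitals.
MMP7: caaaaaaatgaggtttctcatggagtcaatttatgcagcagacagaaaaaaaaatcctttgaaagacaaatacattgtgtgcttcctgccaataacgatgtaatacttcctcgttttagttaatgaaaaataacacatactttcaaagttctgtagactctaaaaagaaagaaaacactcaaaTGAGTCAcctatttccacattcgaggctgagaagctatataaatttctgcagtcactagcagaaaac
MMP10: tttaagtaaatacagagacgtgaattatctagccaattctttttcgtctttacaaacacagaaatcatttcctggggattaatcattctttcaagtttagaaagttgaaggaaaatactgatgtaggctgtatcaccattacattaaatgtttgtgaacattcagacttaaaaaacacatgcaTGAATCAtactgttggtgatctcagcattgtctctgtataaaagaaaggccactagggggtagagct
ADAM19: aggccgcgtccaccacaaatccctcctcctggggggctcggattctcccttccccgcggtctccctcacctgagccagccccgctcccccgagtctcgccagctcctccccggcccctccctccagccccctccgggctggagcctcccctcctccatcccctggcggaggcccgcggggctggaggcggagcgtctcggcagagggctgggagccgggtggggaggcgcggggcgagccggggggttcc
MMP15: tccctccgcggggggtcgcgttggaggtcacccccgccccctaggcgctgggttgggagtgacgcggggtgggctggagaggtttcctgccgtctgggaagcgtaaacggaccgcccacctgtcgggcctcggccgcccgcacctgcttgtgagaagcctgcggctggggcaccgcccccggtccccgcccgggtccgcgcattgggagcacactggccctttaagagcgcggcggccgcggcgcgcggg

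The windows of MMP7 and MMP10 had 33.6% and 34.4% G and C, against 76.4% in ADAM19 and 74.8% in MMP15, and MMP14 lay between them with 56.8%. A match describes the letters of a window and is not evidence that a factor binds there. Sites for ETS factors were not searched. On the list of factors that act on MMP promoters, all 13 genes of the AP-1, ETS and NF-kB families passed the filter on low counts. Their values are given with the other pathway genes below.

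The membrane-type enzymes moved in opposite directions. MMP14, or MT1-MMP, activates the MMP2 precursor at the cell surface and cleaves fibrillar collagen, and its gene lies on chromosome 14 from 22836585 to 22847758. It was at 102 and 101 CPM in shCTRL and at 131 and 248 CPM in shPML, so that the control libraries were nearly equal and the shPML libraries were both higher. The log2 ratio was 0.36 (interval 0.31 to 0.41) in experiment 1 and 1.29 (1.23 to 1.35) in experiment 2. The increase was thus 1.28-fold in experiment 1 and 2.44-fold in experiment 2. The leukocyte markers summed to 2.69 CPM in shPML replicate 1 and to 87.6 CPM in shPML replicate 2, and their part in this difference was not tested. The fitted log2 fold change of 0.90 (standard error 0.31) was 0.36 without shPML replicate 2. MMP15, or MT2-MMP, on chromosome 16 from 58025754 to 58046901, was the only protease of the 7 that was lower in shPML. It was at 45.1 and 81.1 CPM in shCTRL and at 24.7 and 43.1 CPM in shPML. The log2 ratios were -0.87 (interval -0.95 to -0.78) and -0.91 (-1.01 to -0.81), a level 0.55 and 0.53 times that of the control of the same experiment. The experiments differed in the level of MMP15, and the difference between its log2 ratios was -0.046 (interval -0.18 to 0.085). The pooled log2 fold change of -0.90 ranged from -1.35 without shPML replicate 2 to -0.42 without shCTRL replicate 2.

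ADAM19, also called meltrin beta, sheds growth factors such as neuregulins, and it was about equally higher in shPML in both experiments. Its gene lies on chromosome 5 from 157477304 to 157575775. It was at 20.5 and 21.4 CPM in shCTRL and at 63.6 and 78.8 CPM in shPML, with groups far apart. This was 3.11-fold higher in experiment 1 (log2 ratio 1.64, interval 1.54 to 1.73) and 3.68-fold higher in experiment 2 (1.88, interval 1.76 to 2.001). The intervals did not overlap, so that the difference of 0.25 between the log2 ratios was larger than the counting error, although small beside the change itself. The fitted log2 fold change was 1.77 (standard error 0.18) and remained between 1.603 and 1.904 with any 1 library left out, with 1.603 without shPML replicate 2.

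Of the inhibitors, TIMP2 changed little in both experiments, and TIMP1 was higher in shPML in experiment 2 only. TIMP1, which blocks most secreted metalloproteinases and binds the MMP9 precursor, on chromosome X from 47582408 to 47586789, was at 387 and 257 CPM in shCTRL and at 386 and 350 CPM in shPML. The log2 ratio was -0.0052 (interval -0.031 to 0.021) in experiment 1 and 0.45 (0.41 to 0.49) in experiment 2. The shPML libraries were alike, and the difference between experiments came with the lower level of the shCTRL library of replicate 2. TIMP2, which with MMP14 takes part in the activation of MMP2, on chromosome 17 from 78852977 to 78925387, was at 125 and 140 CPM in shCTRL and at 136 and 154 CPM in shPML. Its log2 ratio was 0.13 in both experiments, with intervals of 0.082 to 0.17 and 0.073 to 0.19, a difference of 1.09-fold and 1.10-fold. The groups of TIMP1 and of TIMP2 overlapped, and without shPML replicate 2 their fitted log2 fold changes were 0.26 and 0.041, against 0.19 and 0.13 with it. TIMP3, which binds to the matrix and also blocks ADAM proteases, on chromosome 22 from 32801701 to 32863043, was not detected beyond 1 count per library.

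The experiments could be set side by side for 8 of the 10 genes, those with counts in all 4 libraries and above the filter. In 7 of them the change had the same sign in both experiments, the exception being TIMP1, whose interval in experiment 1 included 0. The counting intervals overlapped for MMP1, MMP7, MMP15 and TIMP2 and did not for MMP9, MMP14, ADAM19 and TIMP1. In all 4 of the latter, the log2 ratio was larger in experiment 2, by 2.38 for MMP9, 0.93 for MMP14, 0.45 for TIMP1 and 0.25 for ADAM19. The interval of the difference itself, again for counting error only, also lay above 0 for MMP7 and included 0 for MMP1 (-0.081 to 0.48), MMP15 (-0.18 to 0.085) and TIMP2 (-0.069 to 0.079). With 1 library per group and experiment these differences could not be tested.

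**Figure D3:**
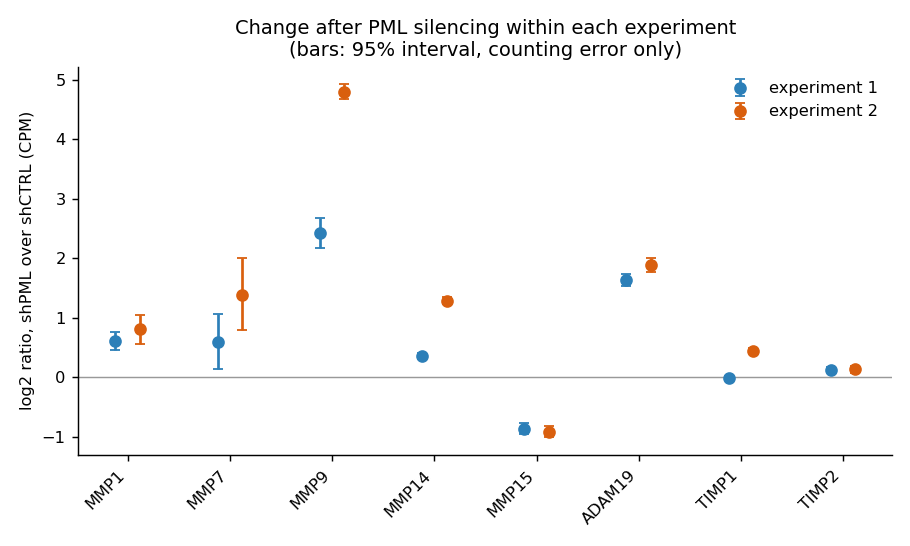
Log2 ratio of CPM in shPML over shCTRL within experiment 1 (blue) and experiment 2 (orange) for the 8 genes with a ratio in both, with bars for the 95% interval of counting error. The points of MMP1, MMP15 and TIMP2 lie close together, whereas MMP9 rises from 2.42 to 4.80 and MMP14 from 0.36 to 1.29 between the experiments.

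In the fit across all genes, called means an adjusted p under 0.05 with a log2 fold change beyond 0.5. Without a term for the experiment, ADAM19 was called higher and none of the 9 genes lower, where 0.0787% of all genes tested were called higher and 0.333% lower. An unadjusted p under 0.05 was reached by 5 of the 9 on the higher side and by 0 on the lower, against 7.8% and 10.1% of all genes tested. DESeq2 called 2 higher (ADAM19 and MMP2) and 0 lower, where it called 3.5% and 5.41% of all genes. With the experiment as a block, edgeR called 5 higher (MMP1, MMP2, MMP9, MMP14 and ADAM19) and 1 lower (MMP15), where 8.57% of all genes were called higher and 10.5% lower. DESeq2 with the block called MMP1, MMP9 and ADAM19 higher and MMP15 lower, where it called 6.67% and 8.38% of all genes. Both shPML libraries lay above both shCTRL libraries for 5 of the 9 genes and below them for 1, as they did for 23.1% and 24.9% of all genes tested. Because the genes were picked from this contrast, nothing is read from these counts. Without shPML replicate 2 the fitted log2 fold changes of the 9 genes lay between -1.35 (MMP15) and 2.61 (MMP2). In experiment 1 alone, 5 of the 6 genes called with the block had a log2 ratio beyond 0.5 in the same direction, and MMP14 had 0.36. Experiment 1 is part of the fit that made these calls, and of all genes called with the block 97.9% of the higher and 100% of the lower ones had the same sign there, so nothing is read from this either.

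The contrast between the experiments was tested with the condition as a term. The genes were chosen with earlier results on these libraries known, so this contrast cannot be taken as independent of the choice. Its counts are a description. Of the 9 genes, 2 were called higher in experiment 2, where 8.93% of all genes were, and 0 were called lower, where 4.53% were. An unadjusted p under 0.05 was reached by 4 genes on the higher side and by 1, TIMP1, on the lower, against 18.4% and 15.7% of all genes. DESeq2 also called 2 higher and 0 lower, where it called 7.18% and 2.4% of all genes. For MMP9, edgeR gave a log2 fold change of experiment 2 over 1 of 4.07 with a standard error of 0.22 and an adjusted p of 3.8e-23. Between the control libraries alone the log2 ratio of MMP9 was 2.56, a 5.90-fold difference, and between the shPML libraries it was 4.95. These ratios were much further apart than the standard error of 0.22, which comes from the fit and does not measure the spread between experiments. The fit includes shPML replicate 2 with its leukocyte RNA. MMP15 was higher in experiment 2 by 0.82 (standard error 0.12, adjusted p = 1.2e-07), with 0.85 between the shCTRL libraries and 0.80 between the shPML libraries. MMP14 differed by 0.46 (adjusted p = 0.0026) and TIMP1 by -0.36 (adjusted p = 0.0045), both short of the fold threshold. For MMP14 the log2 ratio was -0.010 between the controls and 0.92 between the shPML libraries, so that the experiments differed in shPML, where replicate 2 held the leukocyte RNA, and not in shCTRL. For TIMP1 it was -0.59 between the controls and -0.14 between the shPML libraries.

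The balance of proteases and inhibitors was read from summed TPM. The sums set all TIMPs against all 7 proteases and do not weigh which TIMP blocks which enzyme. The 7 proteases summed to 130 and 164 TPM in shCTRL and to 176 and 787 TPM in shPML. The 3 TIMPs summed to 843 and 591 TPM in shCTRL and to 849 and 797 TPM in shPML. Inhibitor RNA thus exceeded protease RNA severalfold in 3 libraries, and in shPML replicate 2 the sums were nearly equal. For every 100 TPM of TIMPs there were 15.4 and 27.8 TPM of proteases in shCTRL and 20.7 and 98.8 TPM in shPML. The log2 of this ratio was higher in shPML by 0.43 in experiment 1 and by 1.83 in experiment 2. Without MMP9 the ratios were 15.1 and 24.7 in shCTRL and 18.8 and 33.5 in shPML per 100 TPM of TIMPs, and the log2 differences were 0.32 and 0.44. In this ratio the experiments were thus close once MMP9 was left out, and MMP9 carried most of the difference between them. The parts of the ratio were not alike. From shCTRL to shPML, proteases without MMP9 went from 127 to 159 TPM in experiment 1 and from 146 to 267 TPM in experiment 2. The TIMP sum went from 843 to 849 TPM and from 591 to 797 TPM. Experiment 2 includes the library with the leukocyte RNA, whose part was not tested. The shCTRL library of replicate 2 had a higher ratio than the shPML library of replicate 1 with MMP9 and without it, so the groups overlapped. The summary mattered: with the mean of log2(TPM + 0.1) per gene in place of sums, which gives each gene the same weight, proteases minus inhibitors stood at -1.60 and -1.13 in shCTRL and at -0.80 and 0.70 in shPML. On that scale the groups did not overlap, and the differences were 0.80 in experiment 1 and 1.83 in experiment 2. Genes near the added 0.1 weigh fully here, and MMP2 was at 0 TPM in shCTRL replicate 2 and 0.33 TPM in shPML replicate 1. MMP2 passed the filter only through its shPML counts. The mean without MMP2 was not computed, so nothing is read from this separation. For the sums, with ADAM19 left out the log2 differences were 0.30 and 1.85, and with TIMP4, RECK and A2M added to the inhibitors they were 0.42 and 1.83.

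**Figure D4:**
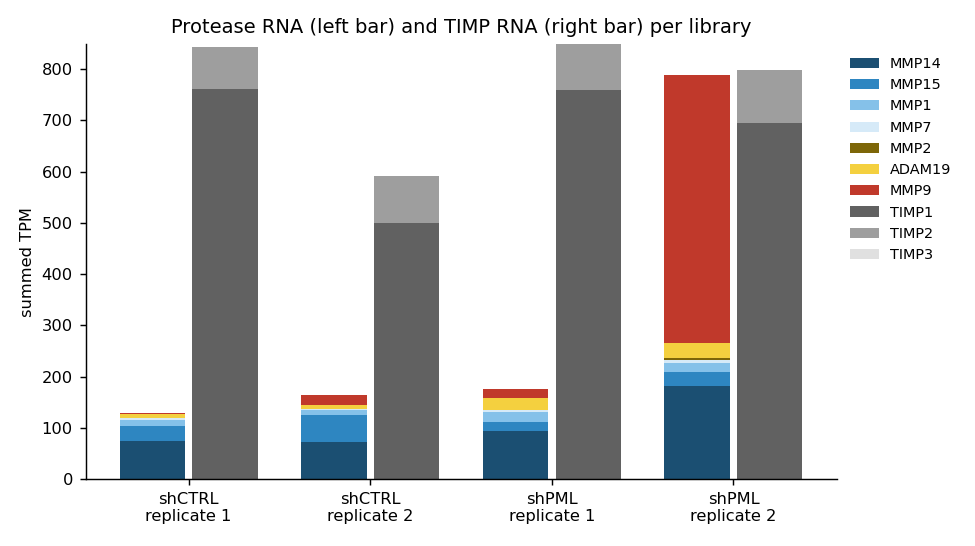
Summed TPM of the 7 proteases (left bar, coloured by gene) and of the 3 TIMPs (right bar, in greys) in each library. The TIMP bars stand between 591 and 849 TPM, and the protease bar rises from 130 TPM in shCTRL replicate 1 to 787 TPM in shPML replicate 2, where MMP9 is 66.1% of it.

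The make-up of the protease RNA shifted with these changes. MMP14 took 56.9% and 44.3% of protease TPM in shCTRL and 54.0% in shPML replicate 1, and 23.03% in shPML replicate 2, where MMP9 took 66.1%. MMP15 took 22.9% and 32.3% in shCTRL and 9.29% and 3.65% in shPML, and ADAM19 took 5.98% and 4.92% in shCTRL and 13.8% and 3.85% in shPML. The inhibitor side kept its make-up, with TIMP1 at 84.5% to 90.3% of TIMP TPM in all libraries. Of the pairs known to bind, MMP9 was at 0.41% and 3.67% of the TPM of TIMP1 in shCTRL and at 2.21% and 74.9% in shPML. MMP14 was at 90.2% and 79.6% of the TPM of TIMP2 in shCTRL and at 106% and 178% in shPML. MMP14 RNA thus passed TIMP2 RNA in both shPML libraries, in replicate 1 by little, and in neither control. MMP1 was at 1.68% and 1.91% of TIMP1 in shCTRL and at 2.56% and 2.44% in shPML. MMP2 was at 0.12% and 0% of TIMP2 in shCTRL and at 0.37% and 2.95% in shPML. The part of the leukocyte RNA in the values of shPML replicate 2 was not tested.

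The other genes of the pathway were taken from 7 lists of 91 genes, of which 57 passed the filter. The lists were chosen with earlier results of these data known. Their shares beside those of all genes are therefore a description, and no enrichment is read from them. Without the block, edgeR called 0 of them in either direction, while an unadjusted p under 0.05 was reached by 15 genes with higher and 2 with lower levels (26.3% and 3.51%, against 7.80% and 10.1% of all genes tested). DESeq2 called 8 higher and 2 lower (14% and 3.51%), where it called 3.5% and 5.41% of all genes. With the experiment as a block, edgeR called 18 higher (31.6%) and 3 lower (5.26%), where 8.57% and 10.5% of all genes tested were called. DESeq2 with the block called 14 higher and 2 lower (24.6% and 3.51%), where 6.67% and 8.38% of all genes were, and it did not call ADAM8, PCSK6, FOS and FOSB higher or ADAMTS2 lower. In experiment 1 alone, without shPML replicate 2, the log2 ratio had the same sign for all 18 and all 3 genes and was beyond 0.5 for 16 and 3. Experiment 1 is part of the fit that made the calls, and the same sign was shared by 97.9% and 100% of all genes called higher and lower with the block, so this adds nothing particular to these lists. The adjusted p-values below are those of the edgeR fit with the block, and the median log2 fold changes, from the fit without it, stand against a median of 0.0095 over all genes tested.

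Of 17 other MMPs, 3 passed the filter, 1 was called higher and 1 lower, and their median was 1.08. MMP19, a secreted enzyme, was at 6.28 and 7.64 CPM in shCTRL and at 9.53 and 20.1 CPM in shPML (log2 fold change 0.99, adjusted p = 9.4e-06). MMP24, or MT5-MMP, also fell, from 112 and 150 CPM to 59.2 and 67.9 CPM (log2 fold change -1.03, adjusted p = 1.4e-11). Its exons share 647 bases with the antisense gene MMP24OS, which had 3816 to 6127 counts per library, and whether the counting used strand is not stated, so the value of MMP24 is uncertain.

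Among the ADAM and ADAMTS proteases that passed the filter, most were not called with the block, and more were called higher than lower. Of 11 other ADAM proteases 6 passed the filter, with a median of 0.21, and 1 was called. This was ADAM8, a protease common on leukocytes, at 3.97 and 3.14 CPM in shCTRL and 4.35 and 17.5 CPM in shPML (log2 fold change 1.28, adjusted p = 0.00019, not called by DESeq2), and its log2 ratio was 0.13 in experiment 1 and 2.48 in experiment 2, where the leukocyte markers were high. ADAM28 likewise had 0 to 5 counts in 3 libraries and 91 in shPML replicate 2. The sheddases ADAM10 and ADAM17 had log2 ratios of 0.38 and 0.28 in experiment 1 and 0.22 and 0.20 in experiment 2, and neither was called. ADAM9, the most abundant of these by CPM, was lower, at 503 and 536 CPM in shCTRL and 454 and 413 CPM in shPML. Its log2 ratios were -0.15 and -0.38, and its log2 fold change of -0.26 (adjusted p = 0.030) was short of the fold threshold.

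Of 19 ADAMTS proteases, which cleave proteoglycans and procollagens, 13 passed the filter, 6 were called higher and 1 lower, with a median of 0.20. ADAMTS14, a procollagen N-proteinase, was at 8.81 and 6.69 CPM in shCTRL and 22.7 and 29.0 CPM in shPML (log2 fold change 1.72, adjusted p = 4.8e-14). ADAMTS13, which cleaves von Willebrand factor, changed by 1.36 (adjusted p = 0.00044) and ADAMTS7 by 1.10 (adjusted p = 4.2e-05), with log2 ratios of 1.19 and 0.99 in experiment 1, and ADAMTS1, ADAMTS10 and ADAMTS15 were also called higher. ADAMTS2, another procollagen N-proteinase, fell from 2.66 and 2.97 CPM to 0.64 and 1.85 CPM (log2 fold change -1.37, adjusted p = 0.0076), a call that DESeq2 with the block did not make. In experiment 1, which does not use shPML replicate 2, the log2 ratios of ADAMTS14 and ADAMTS2 were 1.37 and -2.05.

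RECK, a membrane-anchored inhibitor of MMP9, MMP2 and MMP14, was the only 1 of 3 further inhibitors that passed the filter, and it rose. It was at 11.2 and 10.9 CPM in shCTRL and at 21.2 and 18.4 CPM in shPML (log2 fold change 0.84, adjusted p = 4.8e-06), with log2 ratios of 0.92 and 0.76. TIMP4 had 0 counts in all libraries and A2M at most 13. Of 12 activators and partners of MMPs, 10 passed, 3 were called higher and 0 lower, with a median of 0.23. PLAU, the urokinase that starts the plasmin cascade, was at 68.4 and 44.7 CPM in shCTRL and at 104 and 106 CPM in shPML (log2 fold change 0.92, adjusted p = 5.2e-09). ITGAV, the integrin alpha V chain, was at 219 and 212 CPM in shCTRL and near 399 CPM in both shPML libraries (0.89, adjusted p = 3.4e-11), and the proprotein convertase gene PCSK6 changed by 0.74 (adjusted p = 0.019, not called by DESeq2). In experiment 1 alone the log2 ratios of PLAU, ITGAV and PCSK6 were 0.61, 0.86 and 0.56. FURIN, the convertase that activates the membrane-type MMPs, had log2 ratios of -0.37 and -0.091 and was not called.

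Of 16 matrix substrates, 11 passed, 2 were called higher and 0 lower, with a median of 0.15. These were NID1, the basement membrane linker nidogen-1 (log2 fold change 0.58, adjusted p = 3.6e-05), and LAMA3, a laminin chain (0.52, adjusted p = 1.9e-05), with log2 ratios of 0.67 and 0.48 in experiment 1. The type IV collagen chain COL4A1 was abundant at 1445 and 1984 CPM in shCTRL and 1928 and 2189 CPM in shPML and was not called. Of the 13 factors that act on MMP promoters, 4 were called higher and 1 lower, with a median of 0.39. The AP-1 subunit FOSB was at 33.6 and 6.25 CPM in shCTRL and at 98.4 and 128 CPM in shPML (log2 fold change 2.80, adjusted p = 3.1e-15), and FOS was at 22.3 and 10.1 CPM against 42.4 and 105 CPM (2.09, adjusted p = 5.0e-12). DESeq2 with the block called neither of them. Both were higher in shPML in each experiment, with log2 ratios of 1.55 and 0.92 in experiment 1 and 4.36 and 3.39 in experiment 2. JUNB changed by 0.92 (adjusted p = 1.0e-10). It was at 59.2 and 180 CPM in shCTRL and at 98.1 and 387 CPM in shPML, and its groups overlapped. ETV5 was also called higher, and ETS2 fell from 89.8 and 108 CPM to 37.7 and 39.4 CPM (-1.35, adjusted p = 7.5e-15). In experiment 1 alone the log2 ratio was 0.73 for JUNB and -1.25 for ETS2. The NF-kB genes NFKB1 and RELA had log2 ratios of 0.020 and -0.017 in experiment 1 and -0.27 and 0.26 in experiment 2, and neither was called.

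**Figure D5:**
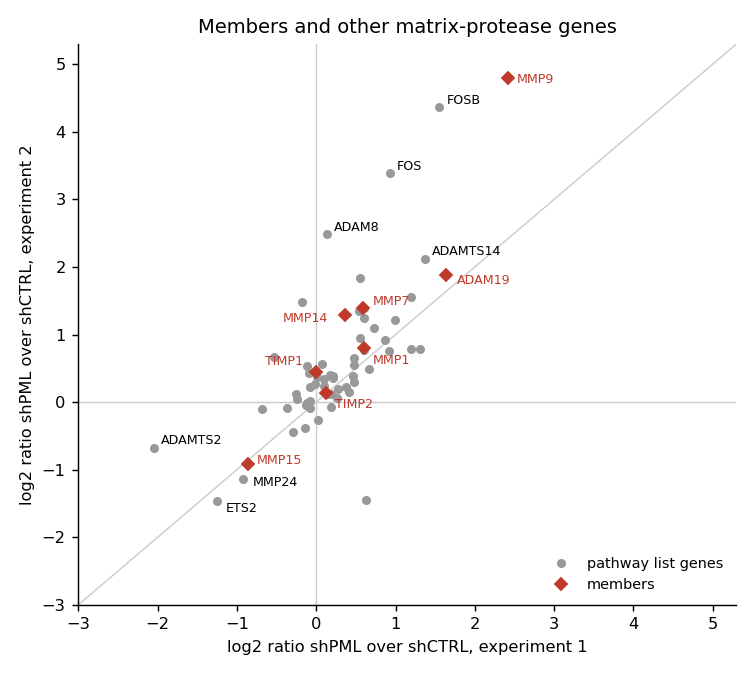
Log2 ratio of CPM in shPML over shCTRL in experiment 1 (x axis) and experiment 2 (y axis) for 8 members (red diamonds) and the 57 other pathway genes that passed the filter (grey circles), with the diagonal of equal change. ADAM19 and MMP15 lie near the diagonal, and MMP9, FOS, FOSB and ADAM8 lie above it.

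Genes whose levels followed MMP9 or ADAM19 most closely were found by the distance between log2 CPM profiles over the 4 libraries, centred on their means, among genes that passed the filter. Nearest to MMP9 were ENG, which encodes the endothelial and macrophage protein endoglin, at a distance of 1.37, and SLC11A1, a metal transporter of macrophages, at 1.66. ENG was at 0.037 and 0.17 CPM in shCTRL and at 0.63 and 22.1 CPM in shPML, and like MMP9 both were highest in shPML replicate 2. Nearest to ADAM19 were CCM2L at 0.055, the secretory GTPase gene RAB3D at 0.10 and the unnamed gene AL139412.1 at 0.12. RAB3D was at 3.21 and 3.39 CPM in shCTRL and at 9.37 and 12.6 CPM in shPML, a pattern nearly equal to that of ADAM19. The profiles rest on all 4 libraries, shPML replicate 2 included, and are a description.

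Some of the genes share exonic bases with other genes on the opposite strand, and it is not stated whether strand was used in the counting. MMP9 shares 430 bases with SLC12A5-AS1, which had at most 9 counts, MMP1 shares 150 with WTAPP1, which also had at most 9, and TIMP2 shares 367 with AC022966.2, which had at most 7. MMP2 shares 174 bases with AC007336.3 on its own strand, which had 0 counts. TIMP1 and TIMP3 lie within SYN1 and SYN3 and share no exonic base with them, and MMP7, MMP14, MMP15 and ADAM19 share none with any other gene of the table.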

How the data were processed

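RNA-seq of 4 RCC4 libraries (2 shCTRL, 2 shPML) was analysed. Single-end reads were trimmed by the authors (Trimmomatic 0.39), mapped to GRCh38 (STAR) and assigned to genes (featureCounts 1.6.4). The values they deposited are raw counts, without normalization, for 59050 genes. The Gencode release and the strand setting are not given in the sources used here. Of the 2 columns of a condition, 1 is named with a 2, and the unnumbered column was therefore assigned to replicate 1. No column was left unused (0), and no row without a gene name entered.

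The main test was edgeR 4.0.16 in R 4.3.3 (TMM, filterByExpr, quasi-likelihood test, Benjamini-Hochberg adjustment over 16516 genes, with genes called as stated in the report), with DESeq2 1.42.0 as an alternative. Tables were made with Python 3.11.15, scipy 1.17.1 and pandas 2.3.3. The fit had condition as its only term. Standard errors given for edgeR are the absolute log2 fold change divided by the square root of the F statistic. Replicate numbers pair the libraries because they mark the separate infections, and same-numbered libraries deviated together from their group means (correlation 0.553, over genes that are not independent). The block lowered edgeR's common dispersion from 0.0813 to 0.0137. Nothing shows that the libraries are more than 2 cultures per group, so the spread is that between these samples, and with 2 against 2 an exact two-sided permutation test cannot go below 0.333. Intervals within an experiment are exact binomial 95% intervals of the counts given the library sizes, those of differences between experiments are normal intervals from the counts, and both cover counting error only. TPM used the gene lengths in the count table, and 0 counts were set to 3 for a bound on a fold. The alternatives were DESeq2, the replicate block, RLE normalization, no filter, at least 10 counts in every library, fold thresholds of 0 and 1, and each library left out in turn.

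The fits were tested on simulated data of this comparison with 16516 genes. Without the block edgeR recovered 0 of 100 genes changed by a log2 fold of 1 and 0 of 100 changed by 2, and DESeq2 recovered 36 and 90. With the block edgeR recovered 91 and 100, with 13 false calls, and DESeq2 78 and 99, with 1. The simulation gave all genes the common dispersion of the fit with the block and the same experiment effect in both groups. It held no disturbance of a single library such as shPML replicate 2, so its false calls do not carry over to the real fits.

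The members and the gene lists were chosen with earlier results of these data known. The genes named are the 10 members, PML, up to 3 genes per direction of each list with the largest change among those called and changed alike in both experiments, and the 3 genes nearest to MMP9 and to ADAM19. A gene within this rule is not reported here. Others named beside them (MMP3, MMP8, MMP10, MMP12, MMP20, MMP27, ADAM9, ADAM10, ADAM17, ADAM28, ADAMTS1, ADAMTS10, ADAMTS15, TIMP4, A2M, FURIN, COL4A1, NFKB1, RELA, ETV5) and the 10 myeloid genes were chosen after their values were seen. Reading the calls in experiment 1 alone and the intervals of differences between experiments were also added after the data were seen. Promoters came from RefSeq (GRCh38.p14).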

Additional observations from a re-analysis of the deposited data

Results flagged for a closer look

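TIMP1 moved in different directions in the experiments, with a log2 ratio of shPML over shCTRL of -0.0052 in experiment 1 and 0.45 in experiment 2. The value in experiment 1 lies within its counting interval of 0, and the difference between the experiments was not tested.

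Leukocyte markers, which the comparisons of proteases do not use, summed to 87.6 CPM in shPML replicate 2 and to 2.20 and 2.56 CPM in the control libraries. The part of this RNA in the levels of MMP9, MMP2, MMP14, MMP7 and ADAM8 was not tested.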

How the results depend on the processing

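Counts of calls depended on the fit. Genes called higher and lower in shPML numbered 13 and 55 in the edgeR fit without a block, 1415 and 1735 with the replicate block, 578 and 894 with DESeq2, 1102 and 1384 with DESeq2 and the replicate block, 53 and 144 with at least 10 counts in every library, 891 and 946 without a filter, 0 and 0 with RLE normalization (smallest adjusted p 0.0501 against 0.0484, and 2967 genes at an unadjusted p under 0.05), and 0 to 187 and 0 to 61 with each library left out in turn. Of the members, 1 was called higher and 0 lower, against 5 and 1 with the replicate block, 2 and 0 with DESeq2, 3 and 1 with DESeq2 and the block, 4 and 1 without a filter and 0 and 0 with RLE normalization, and 0 to 1 higher with a library left out, where only the fit without shPML replicate 1 kept ADAM19. Of the other pathway genes, 0 and 0 were called, against 18 and 3 with the replicate block, 8 and 2 with DESeq2, 14 and 2 with DESeq2 and the block, 1 and 1 with at least 10 counts in every library and 16 and 2 without a filter, and 0 to 4 higher with a library left out. A fit without 1 library assumes that the lone sample varies like the other group. Genes lower in experiment 2 numbered 749, and 396 with DESeq2. The change of the balance in experiment 2 was 1.83, and 0.44 without MMP9. Members kept their direction in all fits except TIMP1, which was not called and stood at -0.08 without shCTRL replicate 2. Their log2 fold changes with a library left out ranged from 0.64 to 6.39 for MMP9, from 0.36 to 1.27 for MMP14, from 0.64 to 1.33 for MMP7, from -1.35 to -0.42 for MMP15 and from 0.50 to 0.93 for MMP1, and that of MMP2 was 2.61 without shPML replicate 2 and rests on an empty control library without shCTRL replicate 1. The cause of these shifts was not tested, apart from the smaller number of libraries or genes that a setting itself fixes. A fit with the block and without a library leaves no residual degrees of freedom and was not run. TIMP3, MMP8 and the other genes with few counts are limited by depth.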
